A study of Mus musculus with 2 samples.

Results

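The mouse mitochondrial genome carries 37 annotated genes, and all 37 were found among the 55536 named genes of these libraries: 13 mRNAs, 2 rRNAs and 22 tRNAs. They were chosen by symbol alone, as every gene whose symbol starts with mt-. The libraries hold rRNA-depleted total RNA from the nucleoplasmic fraction of bone-marrow-derived macrophages of the C57BL/6J strain, and both belong to the only group: cells kept with Lipid A (100 ng/ml), the part of bacterial lipopolysaccharide that macrophages sense, for 12 h, then 12 h after its washout, then exposed to 100 ng/ml once more for 40 min. Library 2 was made from 500 ng of RNA and library 1 from 1 µg. Both carry the same donor entry, no age or sex is given, and there are no unexposed cells, so the values describe this fraction and not a response to Lipid A. Replicate number and RNA input cannot be told apart.

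Mitochondrial DNA is a small circle with almost no space between its genes. It is copied into long RNAs from both strands, which are then cut, mostly at the tRNAs that stand between the mRNAs and rRNAs. The mRNAs encode core subunits of respiratory complexes I, III and IV and of ATP synthase, and the rRNAs and tRNAs serve the ribosome that translates them inside the organelle. Pieces of this DNA have also been copied into the nuclear genome over evolution, where they are annotated as pseudogenes. A read from such a shared stretch fits both places, and each program that counts reads has to divide it.

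In the annotation, 28 of the 37 genes lie on one strand and are made from the heavy-strand precursor: 12 mRNAs, both rRNAs and 14 tRNAs. The other 9 are mt-Nd6 and 8 tRNAs, made from the light-strand precursor. Some neighbours overlap: mt-Atp8 and mt-Atp6 share 43 bases, mt-Nd4l and mt-Nd4 share 7, and mt-Nd5 and mt-Nd6, which face each other, share 14. The strands also differ in their letters. The mt-Nd6 mRNA is 28.1% G and 5.97% C, whereas G runs between 5.88% and 16.1% and C between 22.1% and 29.97% in the 12 heavy-strand mRNAs.

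For 7 of the mRNAs a near-identical sequence is annotated in the nuclear genome. On the minus strand of chromosome 1 (mm10), between positions 24611535 and 24616197, lie 7 unprocessed pseudogenes that repeat mitochondrial genes almost letter for letter. Gm10925 (chr1:24613974-24614651) matched mt-Atp6 (chrM:7927-8607) over 678 of its 681 bases at 100% identity. Gm28661 (chr1:24614885-24615565) matched mt-Co2 (chrM:7013-7696) over 681 of 684 bases at 100%, and Gm28437 (chr1:24613189-24613971) matched mt-Co3 (chrM:8607-9390) over 783 of 784 bases at 100%. Gm10222 (chr1:24612407-24612700) matched mt-Nd4l (chrM:9877-10173) over 294 of 297 bases, and Gm28439 (chr1:24611535-24612410) matched the first 876 of the 1378 bases of mt-Nd4 (chrM:10167-11544), both at 100%. The 3′ ends of mt-Atp6, mt-Co2, mt-Co3 and mt-Nd4l are shown because they hold the only letters that tell these 4 pairs apart within the annotated transcripts; capitals mark the bases that the copy lacks, which are the stop codon in mt-Atp6, mt-Co2 and mt-Nd4l. The sequences are GENCODE M21 transcripts, each 5′ to 3′.
mt-Atp6: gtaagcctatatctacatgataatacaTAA
Gm10925: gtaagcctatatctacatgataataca
mt-Co2: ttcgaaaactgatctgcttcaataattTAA
Gm28661: ttcgaaaactgatctgcttcaataatt
mt-Co3: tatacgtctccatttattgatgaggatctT
Gm28437: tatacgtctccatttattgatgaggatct
mt-Nd4l: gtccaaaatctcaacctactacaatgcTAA
Gm10222: gtccaaaatctcaacctactacaatgc

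Within the aligned stretch, each of another pair of copies differed from its gene at a single position. Gm28438 (chr1:24612775-24613119) matched mt-Nd3 (chrM:9459-9806) over 345 of 348 bases with the substitution T3C, counted from base 1 of the mt-Nd3 transcript. Gm29216 (chr1:24615706-24616197) matched the last 483 bases of mt-Co1 (chrM:5328-6872) with the substitution A1066T. Its transcript of 492 bases aligned from base 10 on. The substituted base is in capitals in the windows of 30 bases below.
mt-Nd3: atTaacctgtacactgttatcttcattaat
Gm28438: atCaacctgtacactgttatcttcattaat
mt-Co1: ggaAttgttttatccaactcatcccttgac
Gm29216: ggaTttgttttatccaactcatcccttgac
More distant copies lay elsewhere. Gm13340 on chromosome 2 was 97.6% identical to mt-Co1 and took 29.04 and 7.23 RSEM counts in libraries 2 and 1 and 287 and 84.1 kallisto counts. The other 3 copies past 95% identity (Gm13341, Gm13339 and Gm4076) had fewer than 100 counts in every library by either program. No annotated copy past these limits was found for mt-Nd1, mt-Cytb, mt-Nd6, mt-Atp8 or either rRNA. Only annotated transcripts were searched, so the stretch of chromosome 1 between Gm28661 and Gm10925 was not. mt-Atp8 lies between mt-Co2 and mt-Atp6, the genes that these pseudogenes repeat.

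Expected counts on named genes were 17213606 in library 2 and 19797829 in library 1 by RSEM, and kallisto placed 28776198 and 28292380. All 7 macrophage markers were detected (summed level 2310 TPM in library 2, 2885 in library 1), with 1 of 4 T cell markers and none of the B cell, neutrophil or fibroblast markers. Malat1, a nuclear long RNA, stood at 22941 TPM in library 2 and 26516 in library 1. Reads from more mitochondria in the fraction and from more RNA per mitochondrion cannot be told apart.

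Adding each gene's copies, mitochondrial sequence held 8.32% of RSEM counts in library 2 (Wilson 95% interval 8.31 to 8.34%) and 3.25% in library 1 (3.24 to 3.26%). By kallisto the joint shares were 6.79% in library 2 and 2.57% in library 1. The library 2 over library 1 ratio of the joint share was 2.56 by RSEM and 2.64 by kallisto. The mRNAs made up 99.6% of these joint RSEM counts in library 2 and 97.3% in library 1.

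Taken alone, without copies, the mRNAs with a chromosome 1 copy gave contradictory pictures. mt-Co2, a copper-binding subunit of complex IV, was listed by RSEM at 0 TPM in library 2 and 121 in library 1, and by kallisto at 240 TPM in library 2 and 243 in library 1. The RSEM value of 0 is one solution among many: the deposited posterior mean was 559 TPM in library 2 (interval 299 to 855, of a level that is not given) and 392 in library 1 (interval 234 to 657). RSEM gave Gm28661 99.97% of the joint count in library 2 and 97.3% in library 1, and kallisto gave it 94.6% in library 2 and 76.3% in library 1. Most of what this sequence yielded was thus booked to the pseudogene by both programs.

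mt-Atp6, a subunit of the proton channel of ATP synthase, showed the opposite split between programs. RSEM placed 15.1% of the joint count on mt-Atp6 in library 2 and 8.89% in library 1, while kallisto placed 99.99% in library 2 and 95.6% in library 1. The resulting levels were 1399 TPM in library 2 and 281 in library 1 by RSEM, and 4914 and 699 TPM in libraries 2 and 1 by kallisto. For mt-Co3, a core subunit of complex IV, RSEM kept 3.84% on the mitochondrial gene in library 2 and 17.8% in library 1, and kallisto kept 52.7% in library 2 and 88.8% in library 1. The share therefore differed between the libraries as well as between the programs.

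The small complex I subunits mt-Nd4l and mt-Nd3 were likewise split by RSEM and hardly at all by kallisto. mt-Nd4l kept 16.3% of its joint count in library 2 and 41.9% in library 1 by RSEM, and 100% in both by kallisto. mt-Nd3 kept 24.3% in library 2 and 43.4% in library 1 by RSEM, and 98.5% in library 2 and 100% in library 1 by kallisto. mt-Nd4, whose copy covers only its first part, kept 77.4% in library 2 and 63.6% in library 1 by RSEM, and 69.1% in library 2 and 54.4% in library 1 by kallisto. mt-Co1, the catalytic subunit of complex IV, lost almost nothing to Gm29216 and Gm13340: it kept 99.97% in library 2 and 99.997% in library 1 by RSEM, and 98.8% in library 2 and 99.9% in library 1 by kallisto. Its copies either cover a part or carry mismatches, as do the copies of mt-Nd4 and mt-Nd3. Whether this bears on the share was not tested.

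**Figure D1:**
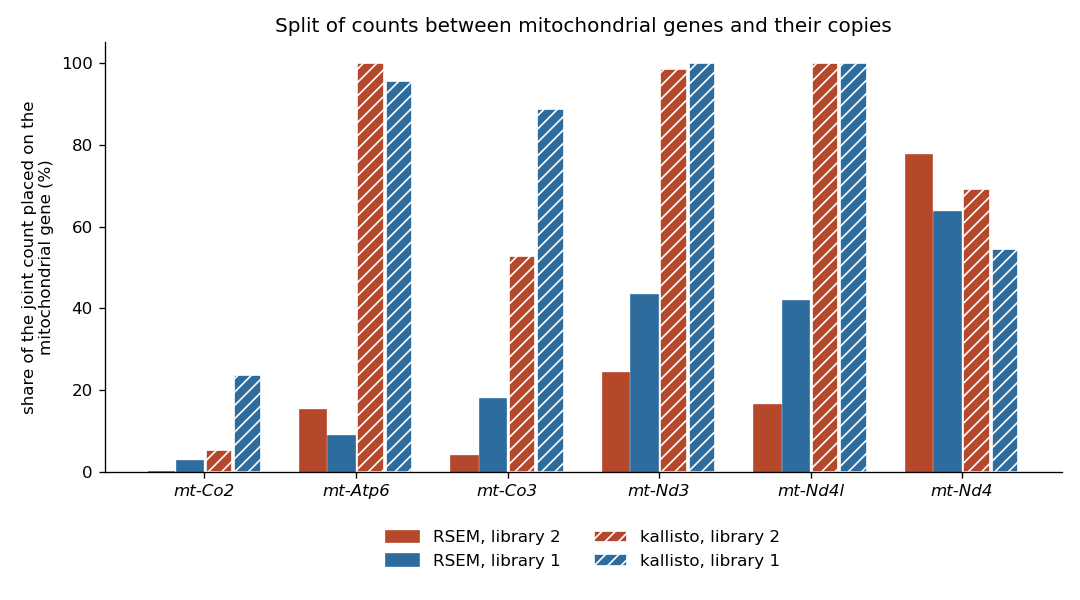
The bars give the percent of the joint count (gene plus copies) that each program placed on the mitochondrial gene, for RSEM and kallisto in library 2 and library 1. RSEM stays under 50% for every gene shown except mt-Nd4, whereas kallisto places over 95% on mt-Atp6, mt-Nd3 and mt-Nd4l in both libraries and under 25% on mt-Co2.

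The uncertainty is visible in the deposited precision scores. The posterior SD of the count, as a percent of the posterior mean, was 27.1% in library 2 and 25.7% in library 1 for mt-Co2, 12.5% and 22.2% in libraries 2 and 1 for mt-Co3, and 10.5% and 31.2% in libraries 2 and 1 for mt-Atp6. For mt-Nd4 it was 0.350% in library 2 and 0.690% in library 1. For mt-Nd1, mt-Nd5, mt-Nd6, mt-Cytb, mt-Atp8 and both rRNAs it was 0 in both libraries. This SD covers the division of reads and not the spread between libraries.

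Once the copies were added, RSEM and kallisto gave nearly the same picture of the mRNAs. On the log2 scale, centred on nuclear coding genes, the RSEM over kallisto difference in CPM ran between -5.38 and 0.44 over the 13 mRNAs taken alone (mean of the libraries), with 5 past 2-fold; the lowest was mt-Co2, whose value depends on the pseudocount of 1, since RSEM lists it at 0 in library 2. With copies it ran between -0.02 and 0.30, with 0 past 2-fold. The order of the 13 joint levels per kb gave a Spearman rho of 0.995 between the programs in each library, as a description over 13 genes that share both libraries and their reads. For TPM of the genes alone rho was 0.698 in library 2 and 0.692 in library 1. Those TPM values differ from the joint levels in length scaling as well as in copies. The part of each in the change of rho was not tested.

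Levels between genes are compared per kb of annotated length, as CPM (counts scaled to the total of the library) per kb with copies. This was chosen since TPM divides by an effective length that becomes very short for small genes. In library 2 RSEM's effective length was 28.3% of the annotated length for mt-Nd4l, 37.5% for mt-Nd3 and 85.7% for mt-Co1. Short genes therefore stand lower relative to long ones per annotated kb than per base of effective length. The order of the mRNAs, its range and the shares by complex rest on this choice. RNA of a nuclear copy, if there is any, is part of a level with copies and cannot be told apart here. Complex IV, which passes electrons to oxygen, led. mt-Co1 stood at 21205 CPM per kb in library 2 and 7977 in library 1 by RSEM, and at 17388 in library 2 and 6154 in library 1 by kallisto. mt-Co2 with its copies stood at 8052 CPM per kb in library 2 and 3363 in library 1 by RSEM. mt-Co3 with its copy stood at 5353 in library 2 and 1829 in library 1. mt-Co1 was the highest mRNA in both libraries and by both programs, and library 2 was the higher one for all 3 genes.

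As a share of the summed per-kb level of the 13 mRNAs, complex IV took 44.1% in library 2 and 44.3% in library 1 by RSEM, and 43.0% in library 2 and 43.8% in library 1 by kallisto. The complex IV share therefore moved by less than 1 percentage point between libraries that differed 2.56-fold in the joint mitochondrial share. mt-Co1 by itself held 26.9 ± 0.143% (SD, n = 2) by RSEM and 26.7 ± 0.180% by kallisto.

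ATP synthase mRNAs took a larger part in library 2. mt-Atp6 with its copy stood at 8236 CPM per kb in library 2 and 2395 in library 1 by RSEM, and at 6849 in library 2 and 1857 in library 1 by kallisto. mt-Atp8 (chrM:7766-7969), a short membrane subunit, stood at 4075 CPM per kb in library 2 and 948 in library 1 by RSEM. Both together held 15.7% of the mRNA level in library 2 and 11.2% in library 1 by RSEM, and 16.2% and 11.5% in libraries 2 and 1 by kallisto. The genes overlap by 43 bases on the same strand.

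The 7 complex I mRNAs, whose products take electrons from NADH, took 34.2% of the mRNA level in library 2 and 39.3% in library 1 by RSEM. mt-Nd5 (chrM:11742-13565) stood at 5109 CPM per kb in library 2 and 2649 in library 1. mt-Nd4 with its copy stood at 6009 in library 2 and 2054 in library 1, and mt-Nd1 (chrM:2751-3707) at 5112 in library 2 and 1445 in library 1. All of these were higher in library 2, mt-Nd5 by the smallest factor of the 3. mt-Nd2 (chrM:3914-4951) stood at 2675 CPM per kb in library 2 and 757 in library 1. mt-Nd4l with its copy stood at 2981 in library 2 and 1377 in library 1. mt-Nd3 with its copy stood at 1048 in library 2 and 297 in library 1, the lowest joint level of the 13 mRNAs in both libraries by RSEM and by kallisto.

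mt-Nd6 (chrM:13552-14070), the only mRNA of the light-strand precursor, stood apart. It had 3880 CPM per kb in library 2 and 3107 in library 1 by RSEM, and 3636 in library 2 and 2455 in library 1 by kallisto. Its share of the mRNA level was 4.94% in library 2 and 10.4% in library 1 by RSEM, and 5.60% and 10.6% in libraries 2 and 1 by kallisto. In library 1 it ranked above all mRNAs but mt-Co1 and mt-Co2, while in library 2 by RSEM 9 of the 13 mRNAs stood above it. Whether counting used the strand is not given in the sources used here, so reads of the facing heavy-strand RNA cannot be set apart from those of mt-Nd6.

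mt-Cytb (chrM:14145-15288), the cytochrome b subunit of complex III, stood at 4768 CPM per kb in library 2 and 1555 in library 1 by RSEM, and at 3800 in library 2 and 1177 in library 1 by kallisto. Its share of the mRNA level was 6.07% in library 2 and 5.23% in library 1 by RSEM. It has no near-identical annotated copy at the limits used, so its value does not depend on how reads were divided.

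By mean RSEM share of the mRNA level (SD, n = 2), mt-Co1 was followed by mt-Co2 at 10.8 ± 0.739%, mt-Atp6 at 9.27 ± 1.73%, mt-Nd5 at 7.71 ± 1.69%, mt-Nd6 at 7.69 ± 3.89% and mt-Nd4 at 7.28 ± 0.531%. Then came mt-Co3 at 6.48 ± 0.474%, mt-Nd1 at 5.68 ± 1.17%, mt-Cytb at 5.65 ± 0.599%, mt-Nd4l at 4.21 ± 0.588%, mt-Atp8 at 4.19 ± 1.42%, mt-Nd2 at 2.98 ± 0.611% and mt-Nd3 at 1.17 ± 0.237%. Between neighbours in this order the libraries' ranges were separate at only 4 steps: mt-Co1 over mt-Co2, mt-Nd4 over mt-Co3, mt-Cytb over mt-Nd4l, and mt-Nd2 over mt-Nd3. The highest joint level was 21.7-fold above the lowest by RSEM. The level did not follow the place along the genome (Spearman rho -0.08 over the 13 mRNAs, a description over genes that share a precursor).

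**Figure D2:**
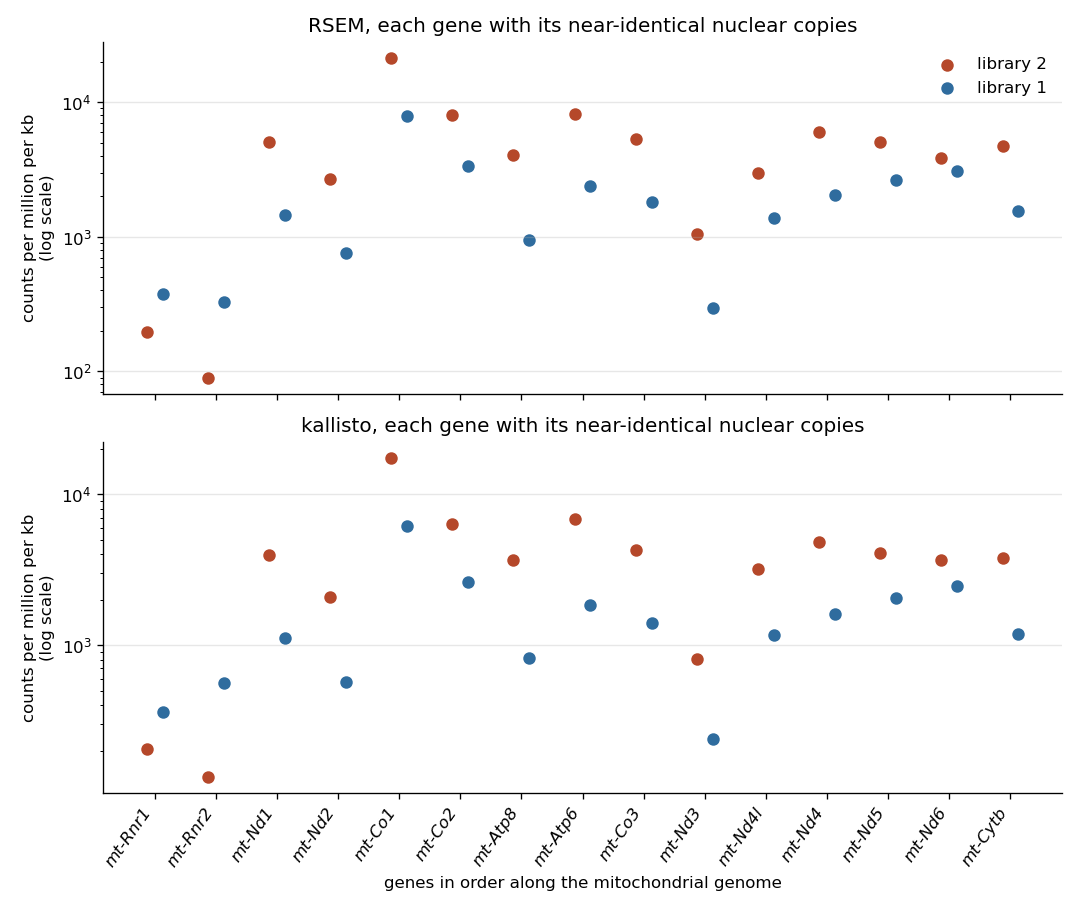
Points give CPM per kb (log axis) of the 13 mRNAs and 2 rRNAs with their copies, in genome order, for library 2 and library 1, by RSEM (top) and kallisto (bottom). Every mRNA is higher in library 2 and both rRNAs are lower in library 2; mt-Co1 is the top point and mt-Nd6 has the smallest gap between libraries among the mRNAs.

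In TPM the order differed, and the shortest mRNA led. mt-Atp8, 204 bases long, had 31966 TPM in library 2 and 6323 in library 1 by RSEM, and ranked 1 of 10991 detected protein-coding genes by mean TPM. By CPM per kb without copies it ranked 9, and mt-Co1 ranked 1. RSEM used an effective length of 19.8 bases for mt-Atp8 in library 2 and 28.3 in library 1, which is 9.71% and 13.9% of its length in libraries 2 and 1. kallisto used 56.2 bases in library 2 and 48.7 in library 1, and listed the gene at 6974 TPM in library 2 and 924 in library 1. The RSEM figure is thus higher than the kallisto figure by 1.72 on the centred log2 scale in TPM and by 0.09 in CPM.

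**Figure D3:**
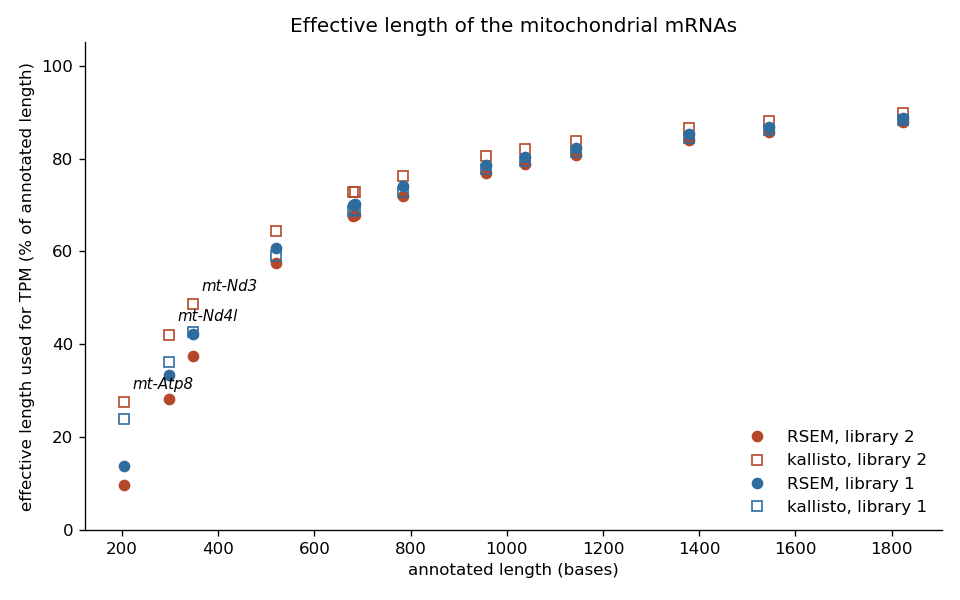
Each point is 1 of the 13 mRNAs in 1 library: annotated length in bases on the x axis, effective length as a percent of it on the y axis, filled for RSEM and open for kallisto. At 204 bases (mt-Atp8) RSEM used 9.71% in library 2 and 13.9% in library 1, while at 1824 bases (mt-Nd5) all 4 values lie between 87.9% and 89.8%.

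Across all features with a mean of 10 or more counts, 0.457% were placed 2-fold or more higher and 28.2% 2-fold or more lower by RSEM than by kallisto in TPM. Of the 15 mitochondrial genes in that comparison 1 was higher, mt-Atp8, and 4 were lower, mt-Atp6, mt-Co2, mt-Co3 and mt-Nd4l. A count of 4 of 15 lower is near the background share. The 22 tRNAs, with an RSEM effective length of 0, were not in this comparison.

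Library 2 exceeded library 1 for most mRNAs, as differences in log2(TPM + 1) centred on nuclear coding genes, 1 library a side. By RSEM TPM without copies 8 of 15 tested mitochondrial genes were 2-fold or more higher in library 2, where 1.09% of all tested features were, and 2 of 15 (mt-Co2 and mt-Rnr2) were 2-fold or more lower, where 1.87% of features were. mt-Co2, at 0 in library 2, passed the count limit through library 1 alone and therefore had to differ. By kallisto TPM 26 of 31 were higher, against 2.12% of features, and 1 of 31 (mt-Rnr2) was lower, against 0.864%. Of those 26, 10 were tRNAs that passed the count limit through library 2 alone and therefore had to differ. With copies, every mRNA was higher in library 2 by both programs, by 0.38 to 2.16 on the log2 scale of CPM by RSEM (median 1.61) and by 0.54 to 2.14 by kallisto (median 1.58).

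The size of this difference was not uniform. With copies and by RSEM CPM it was largest for mt-Atp8 (log2 2.16), mt-Nd1 (1.88), mt-Nd2 (1.88), mt-Nd3 (1.87) and mt-Atp6 (1.84). It was 1.68 for mt-Cytb, 1.61 for mt-Nd4 and for mt-Co3, 1.47 for mt-Co1, 1.32 for mt-Co2, 1.17 for mt-Nd4l and 1.01 for mt-Nd5. It was smallest for mt-Nd6, at 0.38 by RSEM and 0.54 by kallisto. The genes with the smallest differences by RSEM, mt-Nd5 and mt-Nd6, are next to each other on facing strands.

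Reading a gene alone could turn its direction. mt-Co3 was lower in library 2 by RSEM TPM alone (-0.62) but higher by kallisto TPM (1.22), by the RSEM posterior mean (1.49) and with its copy (1.61). mt-Co2, listed at 0 in library 2 by RSEM, was lower there alone (the plotted -6.65 depends on the pseudocount of 1) and by kallisto TPM (-0.52), but higher by the posterior mean (0.75) and with its copies (1.32). mt-Nd4l was at -0.01 by RSEM TPM, -0.04 by the posterior mean, 1.67 by kallisto TPM and 1.17 with its copy. For the mRNAs without an annotated copy on chromosome 1 and for the rRNAs the direction was the same under all 4 ways of counting.

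**Figure D4:**
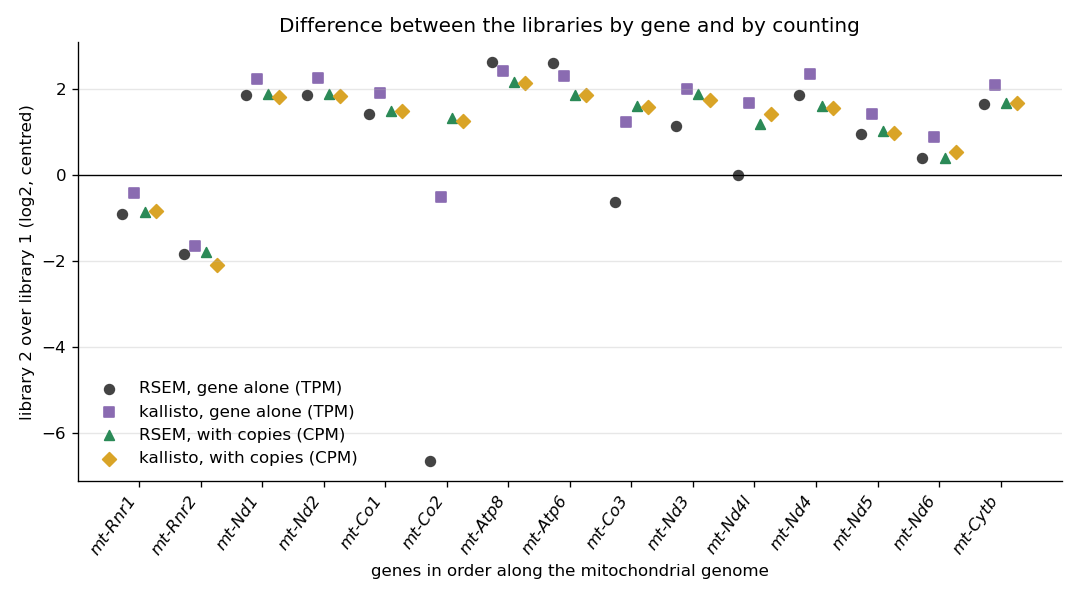
Points give the centred log2 ratio of library 2 over library 1 for the 2 rRNAs and 13 mRNAs in genome order, by 4 ways of counting: RSEM and kallisto TPM of the gene alone, and RSEM and kallisto CPM with copies. With copies all 13 mRNAs lie above 0 and both rRNAs below it; mt-Co2, mt-Co3 and mt-Nd4l are the mRNAs for which a gene-alone value lies below 0.

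The rRNAs of the mitochondrial ribosome went the other way. mt-Rnr1 (chrM:70-1024), the RNA of the small subunit, had 3239 RSEM counts in library 2 and 7117 in library 1, and 5607 and 9722 kallisto counts in libraries 2 and 1. mt-Rnr2 (chrM:1094-2675), the RNA of the large subunit, had 2446 RSEM counts in library 2 and 10255 in library 1, and 6067 and 25268 kallisto counts in libraries 2 and 1. Both were lower in library 2 by both programs, by -0.90 for mt-Rnr1 and -1.84 for mt-Rnr2 on the centred log2 scale of RSEM TPM.

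Per kb the rRNAs lay below nearly all mRNAs: mt-Rnr1 had 197 CPM per kb in library 2 and 376 in library 1, and mt-Rnr2 had 89.8 in library 2 and 327 in library 1, by RSEM. In library 1 both rRNAs were above mt-Nd3, at 297. The libraries were depleted of rRNA before sequencing. Nuclear rRNA genes moved in the same direction, with 0.00383% of RSEM counts in library 2 and 0.0608% in library 1, and 0.0840% and 0.195% of kallisto counts in libraries 2 and 1; their part in the rRNA difference was not tested. As a share of the members' own RSEM counts, the rRNAs took 0.500% in library 2 and 3.34% in library 1.

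The tRNAs, 59 to 75 bases long, were seen by one program only. RSEM listed all 22 at 0 counts with an effective length of 0, so 0 here is not a measured absence. They are among 4584 named genes, of up to 123 bases, that have an RSEM effective length of 0 in both libraries, 24 of which had counts. kallisto used an effective length of 16.3 to 18.4 bases and placed 1833 counts on them in library 2 and 868 in library 1. That was 0.00637% of kallisto counts in library 2 (Wilson 95% interval 0.00608 to 0.00667%) and 0.00307% in library 1 (0.00287 to 0.00328%).

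The tRNA genes with the most kallisto counts are shown with the leading genes of the other strand. Capitals mark the anticodon, found by a script as the middle of a 7-base loop closed by a stem of 5 base pairs. The first 4 come from the light-strand precursor and the last pair, mt-Th and mt-Tr, from the heavy-strand one; all are GENCODE M21 transcripts, 5′ to 3′.
mt-Ts1: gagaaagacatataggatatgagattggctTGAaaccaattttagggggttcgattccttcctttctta
mt-Tp: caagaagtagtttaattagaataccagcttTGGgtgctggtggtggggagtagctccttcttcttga
mt-Tc: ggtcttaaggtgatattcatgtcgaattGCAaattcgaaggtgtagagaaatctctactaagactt
mt-Tn: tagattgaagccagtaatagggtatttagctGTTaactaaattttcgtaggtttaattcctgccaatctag
mt-Th: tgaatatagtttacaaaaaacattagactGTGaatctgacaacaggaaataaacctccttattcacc
mt-Tr: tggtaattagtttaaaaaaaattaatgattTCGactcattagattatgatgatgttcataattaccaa

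Most tRNA counts fell on the 8 light-strand genes. They took 1565 counts in library 2, or 85.4% of the tRNA counts, and 812 in library 1, or 93.5%. The 14 heavy-strand tRNAs took 268 counts in library 2 and 56 in library 1. The light-strand genes had a median of 179.5 counts in library 2 and 23.5 in library 1, against medians of 20 in library 2 and 4 in library 1 for the heavy-strand genes. All 6 tRNAs with 10 or more counts in both libraries were light-strand genes, and no heavy-strand tRNA reached 10 counts in library 1. The strand here is that of the annotated gene. Whether counting used the strand is not given, so reads of the facing heavy-strand RNA cannot be set apart from those of the light-strand tRNAs.

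mt-Ts1, a serine tRNA that faces the end of mt-Co1 and overlaps it by 3 bases, had 323 counts in library 2 and 524 in library 1. It was the only one of the 6 with more counts in library 1. mt-Tp, for proline, had 420 counts in library 2 and 132 in library 1, and mt-Tc, for cysteine, had 332 in library 2 and 80 in library 1. mt-Tn, for asparagine, had 213 in library 2 and 25 in library 1. mt-Ty, for tyrosine, had 146 in library 2 and 22 in library 1, and mt-Te, for glutamate, had 62 in library 2 and 17 in library 1. These 5 were thus higher in library 2, as the mRNAs were.

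Among light-strand genes the tRNAs mt-Ta, mt-Tn, mt-Tc and mt-Ty stand in a row along the genome, yet mt-Ta had 41 counts in library 2 and 7 in library 1. The heavy-strand tRNAs ran between 0 (mt-Tf) and 42 (mt-Th) in library 2 and between 0 and 9 (mt-Th) in library 1. mt-Tr had 39 in library 2 and 4 in library 1. With 3 counts as the limit that a count of 0 allows, the limit was 0.104 CPM for library 2 and 0.106 for library 1. Over the tRNAs with 10 or more counts in both libraries the median library 2 over library 1 difference was log2 2.31 in kallisto TPM and 1.56 in CPM.

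**Figure D5:**
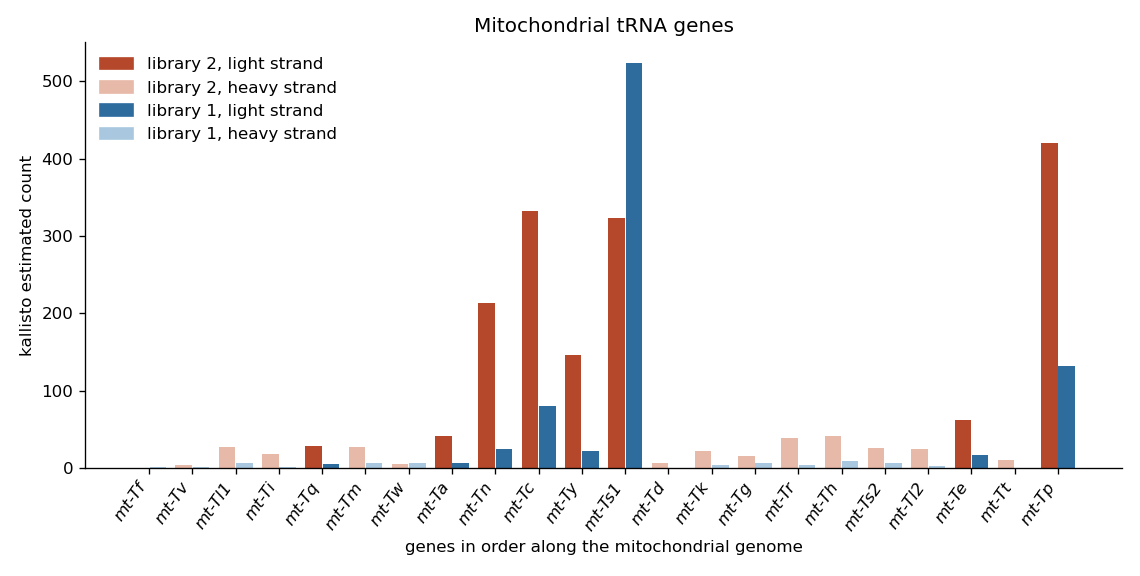
Bars give the kallisto estimated count of each of the 22 tRNA genes in genome order, library 2 left of library 1, dark for the light strand and pale for the heavy strand. The tall bars are all light-strand genes, led by mt-Ts1 at 524 in library 1 and mt-Tp at 420 in library 2, and no pale bar passes 42. The strand is that of the annotated gene, and whether counting used it is not given.

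The nuclear genes that transcribe mitochondrial DNA and handle its RNA lay, on the median, near a library difference of 0. Of 49 symbols listed, 48 were found and 47 detected, at a median of 3.52 TPM beside 6.38 TPM over all detected protein-coding genes. Their median library 2 over library 1 difference was 0.05 on the centred log2 scale of RSEM TPM, where that of all detected coding genes is 0. The highest were Dhx30, known in human cells as a helicase of mitochondrial ribosome assembly, at 21.5 TPM in library 2 and 24.4 in library 1, Mterf3, a regulator of mitochondrial transcription, at 19.9 in library 2 and 25.1 in library 1, and Fastk, which is needed for the mt-Nd6 mRNA, at 17.3 in library 2 and 20.8 in library 1. The lowest detected was Mrm3, known in human cells as a methyltransferase of the large mitochondrial rRNA, at 0.740 TPM in library 2 and 0.540 in library 1.

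One of the 47 was past 2-fold. Tfam, which packages mitochondrial DNA and starts its transcription, stood at 3.53 TPM in library 2 and 1.26 in library 1 by RSEM, a difference of 1.28, while by kallisto TPM the difference was -0.06. Its RSEM counts were 77 in library 2 and 81 in library 1. Polrmt, the mitochondrial RNA polymerase, was named after its values were seen and had 7.04 TPM in library 2 and 5.10 in library 1. Its difference was 0.67 by RSEM TPM and 0.37 by kallisto TPM, with 143 RSEM counts in library 2 and 181 in library 1. The list holds 1 of 47 higher and 0 of 47 lower by RSEM, beside the 1.09% and 1.87% of all features, and 0 in either direction by kallisto.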

How the data were processed

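Each of the 2 libraries came with tables by gene and by transcript from RSEM and a table by transcript from kallisto, going by their columns, per the file headers. RSEM values are from the table by gene, and the members' expected counts were the same in both RSEM tables. The expected count of each gene (RSEM) and the estimated count of each transcript (kallisto, summed here by gene) were used as the authors deposited them. TPM, the authors' length-scaled value, was used as deposited. The bounds of the TPM interval and the posterior SD of a count, each a score of precision, are also the authors' values, and the level of the interval is not stated. The effective length, another column the authors deposited, is the length each program used for TPM. The submitters' notes name mm10 and GENCODE M21. For the aligner, the program versions and the use of strand in counting, nothing is given in the sources used here.

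Members are the 37 genes whose symbol starts with mt-. The members and lists were chosen with earlier results of these data known. All 37 were found in the tables of both programs. CPM scales counts to the total over all named genes, and CPM per kb divides by annotated length. Copies are transcripts of other genes that blastn 2.17.0 aligned to a member at 95% identity or more over 100 bases or more. The tRNAs, 59 to 75 bases long, could not reach this length, so whether they have nuclear copies was not examined. A joint value adds the counts of a member and its copies. Library 2 over library 1, and RSEM over kallisto, are log2 ratios of value + 1, centred on the median of detected nuclear protein-coding genes. Before centring, that median was -0.27 by RSEM TPM and 0.51 by kallisto TPM for library 2 over library 1. Detected means 10 or more counts in both libraries. The centred ratio was tested on simulated counts in CPM only. That simulation does not cover TPM, effective lengths or the division of reads between a gene and its copies. With 1 group and no control cells no test between conditions was possible, and no p-value was computed. RSEM lists every tRNA at 0, so the planned RSEM value for tRNAs was replaced by kallisto's. Named genes are all members, copies with 100 or more counts in a library, and, of a list of genes for mitochondrial transcription and RNA handling, the 3 highest, the lowest detected and those past 2-fold. Shares carry Wilson 95% intervals, which cover counting error only. Scripts used Python 3.11.15, pandas 2.3.3, R 4.3.3, edgeR 4.0.16 (TMM) and DESeq2 1.42.0 (size factors), the last pair for alternatives in scaling.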

Additional observations from a re-analysis of the deposited data

How the results depend on the processing

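Values come from 2 libraries of 1 group, so only their spread is known, and every library difference sets 1 library against 1. A library difference in log2 that moved by 0.05 or less is counted as kept. The shares and the RSEM over kallisto difference are counted as kept within the SD of the 2 libraries. Leaving 1 library out returns the value of the other, and a share then always lies within this SD. That setting therefore cannot show whether a share holds. Posterior means and the library differences of single genes with copies were chosen after seeing the data. So were the joint settings in counts per kb and RSEM over kallisto. The median mRNA library difference of 1.53 over the 12 detected by RSEM stayed above 0 under every alternative run: 1.99 with kallisto TPM, 1.60 with a pseudocount of 0.1, 1.36 with 10, 1.25 without centring, 1.60 with TMM, 1.61 with DESeq2 size factors and 1.42 over all 13 without a filter. With copies it was 1.61, against 1.47 for members alone. The tRNA median of 2.31, which rests on 6 genes, was 1.56 in CPM, 2.10 with a pseudocount of 0.1, 2.47 with 10, 2.82 without centring, 1.57 with TMM, 1.90 with DESeq2 size factors, 2.11 at a minimum of 50 counts and 2.41 without a filter. The median RSEM over kallisto difference of the mRNAs, 0.74, was 0.13 in CPM, 0.25 in CPM with copies and 1.51 without centring. With a pseudocount of 0.1 it was 0.50, and it ran between 0.57 and 0.92 with 1 library left out. The range of mRNA levels, 61.4-fold in RSEM TPM over the 12 detected genes alone, was 12.0-fold in kallisto TPM, 76.1-fold in expected counts per kb and 21.7-fold per kb with copies over all 13; it ran between 30.2 and 147-fold with 1 library left out. Without copies, the members held a mean of 4.61% of RSEM counts, with 6.60% in library 2 and 2.63% in library 1. With copies the mean was 5.79%. The rRNA and tRNA share of members' RSEM counts was 0.500% in library 2 and 3.34% in library 1. Directions turned for mt-Co2 (posterior mean 0.75, with copies 1.32), mt-Co3 (kallisto 1.22, posterior mean 1.49, with copies 1.61) and mt-Nd4l (kallisto 1.67, 0.064 with a pseudocount of 0.1, with copies 1.17); the cause was not tested. No paired analysis was possible because there is only 1 group.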
